A study of Mus musculus with 9 samples.

Results

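Cd63, Cd9, Cd37, Cd53, Cd81, Cd82 and Cd151 are 7 genes of the tetraspanin family, taken here by gene symbol as the tetraspanins best known from the surface and granules of leukocytes. All 7 were among the 23471 genes of the RNA tables, and all 7 passed the filter on low counts. Tetraspanins are small proteins that cross the membrane several times and hold partner proteins, such as integrins and immunoglobulin superfamily members, together in patches of membrane. CD63 sits mainly in late endosomes, lysosomes and granule membranes, and reaches the surface of basophils and eosinophils when they degranulate. CD37 and CD53 are largely restricted to leukocytes, whereas CD9, CD81, CD82 and CD151 are made in many tissues.

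The tetraspanins were followed through eosinophil development in Balb/c mice that had received no treatment. The granulocyte-macrophage progenitors, or GMP, were sorted as Lin-, CD34+, CD16/32+ cells high in c-kit, eosinophil progenitors (EoP) as Lin-, CD34+, CD125+ cells low in c-kit, and mature eosinophils (Eos) as Siglec-F+, CCR3+ cells. The marrow of several animals was pooled, and each cell type gave 2 RNA libraries, which the design text calls independent sorts, and 1 library of chromatin pulled down with an antibody to H3K4me3, a histone mark found at active gene starts. Nothing states that the sorts used different animals, so p-values measure the spread between these libraries, which may be technical.

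The RNA libraries held 5226653 to 12088134 counts, with the GMP libraries the shallowest. The Pearson correlation of log2 CPM (counts scaled to library size with TMM factors) between libraries of a cell type was 0.966 to 0.974 across genes. Transcripts of the gate genes were present in the Eos libraries, with 2272 and 2973 CPM of Ccr3 and 308 and 415 CPM of Siglec5, the mouse gene for Siglec-F in this annotation. Summed over 10 neutrophil markers, the libraries held 1945 and 574 CPM in GMP, 619 and 266 CPM in EoP, and 41520 and 48130 CPM in Eos, and all 10 markers had counts in every library. All 10 passed the test as higher in Eos than in EoP and than in GMP, so a neutrophil signal accompanies every Eos value below.

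Cd63 stood out by its level in EoP. RPKM, the authors' read counts scaled to transcript length and library size, allow genes of different lengths to be compared within a library. Cd63 had 44.1 and 31.8 RPKM in GMP, 394 and 326 RPKM in EoP, and 77.4 and 47.1 RPKM in Eos. Both EoP libraries lay far above the other 4, and the Eos libraries lay above the GMP libraries by a small margin. Among the 23471 genes, Cd63 ranked 285 and 418 by RPKM in GMP, 29 and 34 in EoP, and 185 and 368 in Eos.

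The 3 other abundant members each had a profile of their own. Cd53 had 36.0 and 34.5 RPKM in GMP, 138 and 133 RPKM in EoP, and 102 and 101.1 RPKM in Eos, and its replicates lay close together. Cd37 had 46.5 and 42.3 RPKM in GMP, 75.7 and 67.8 RPKM in EoP, and 97.9 and 98.6 RPKM in Eos, with no overlap between cell types. Cd81, whose protein is part of the B cell coreceptor, had 56.2 and 47.6 RPKM in GMP, 70.2 and 67.8 RPKM in EoP, and 40.7 and 14.6 RPKM in Eos. The Eos libraries of Cd81 were the lowest of the 6 but lay far apart from each other.

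Cd9, Cd82 and Cd151 were less abundant. Cd9, also a major protein of platelets, had 7.40 and 5.96 RPKM in GMP, 4.28 and 5.25 RPKM in EoP, and 21.1 and 14.0 RPKM in Eos, which put both Eos libraries above all others. Cd82, known as a suppressor of metastasis in tumours, had 1.30 and 1.80 RPKM in GMP, 8.15 and 7.28 RPKM in EoP, and 7.24 and 8.03 RPKM in Eos. Its EoP and Eos ranges overlapped in RPKM, and both were above GMP. Cd151, which binds laminin-binding integrins, had 3.79 and 2.53 RPKM in GMP, 3.09 and 3.07 RPKM in EoP, and 3.84 and 2.78 RPKM in Eos. The cell types of Cd151 overlapped throughout in RPKM. In the CPM given below, the Eos libraries of Cd82 and of Cd151 lay above their EoP libraries, though neither difference passed the test.

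**Figure D1:**
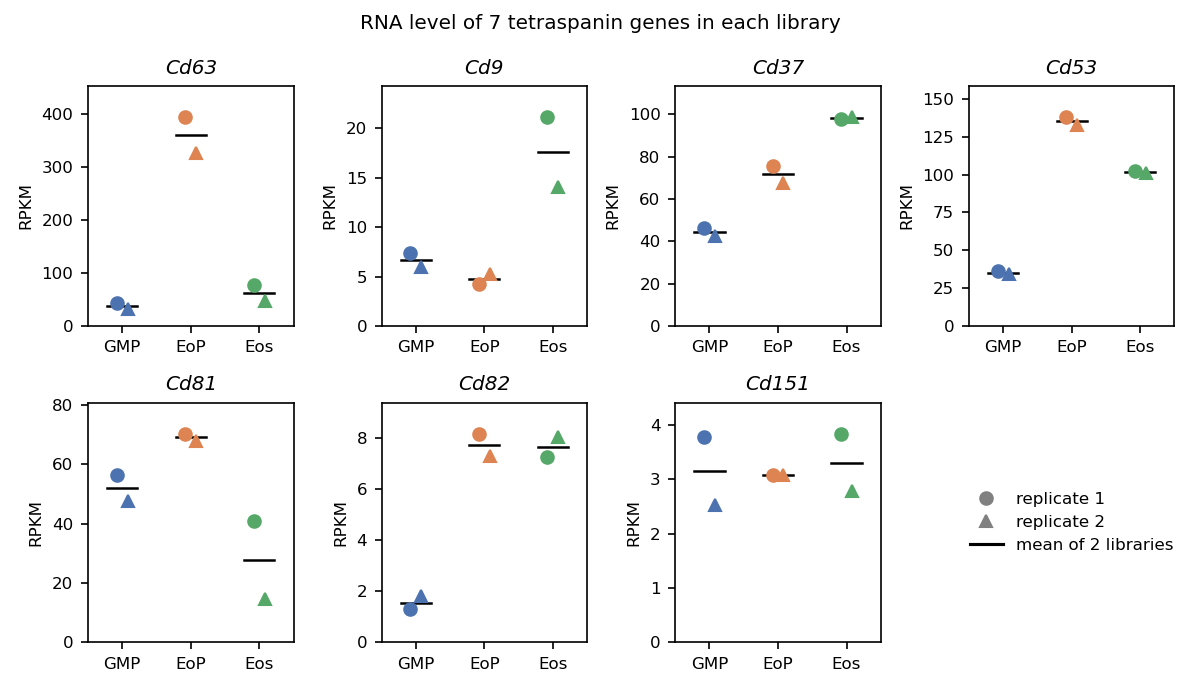
RNA level of each tetraspanin in RPKM (vertical axis, one scale per gene, from 0) in GMP, EoP and Eos. Circles are replicate 1, triangles replicate 2 and lines the mean of 2 libraries; Cd63 averages 360 RPKM in EoP, while Cd9 is highest in Eos and the Cd151 libraries overlap between cell types.

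The order of the members by level differed between the cell types. In GMP, mean levels were 51.9 ± 6.03 RPKM for Cd81, 44.4 ± 2.97 for Cd37, 37.9 ± 8.71 for Cd63 and 35.2 ± 1.04 for Cd53 (SD, n = 2 each here and below). The Cd63 libraries straddled those of Cd53 and reached into the range of Cd37, so these neighbours are not separated. In EoP, Cd63 led at 360 ± 48.2 RPKM, followed by Cd53 at 135 ± 3.45, Cd37 at 71.7 ± 5.63 and Cd81 at 69.0 ± 1.70, where the last pair overlapped. In Eos, Cd53 led at 102 ± 0.892 RPKM, just above Cd37 at 98.2 ± 0.518, and Cd63 at 62.2 ± 21.4 came next. Cd81 at 27.7 ± 18.5 and Cd9 at 17.6 ± 5.02 RPKM overlapped in Eos. Cd9 came next after Cd53 in GMP but below Cd82 in EoP, and Cd151 was lowest in EoP and Eos while Cd82 was lowest in GMP.

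The members' summed RPKM was 195 and 166 in GMP, 693 and 610 in EoP, and 350 and 286 in Eos. Cd63 made up 22.6% and 19.1% of that sum in GMP, 56.8% and 53.4% in EoP, and 22.1% and 16.5% in Eos. Cd53 and Cd37 together formed the main part in Eos, with 29.2% and 35.3% from Cd53 and 27.9% and 34.4% from Cd37. Cd81 supplied 28.8% and 28.6% of the sum in GMP, 10.1% and 11.1% in EoP and 11.6% and 5.11% in Eos. The deposited RPKM of all genes summed to 107144 and 100391 in GMP, 258673 and 239142 in EoP and 150550 and 135498 in Eos. Since these totals differ, the scaled CPM used next are the safer readings between cell types. The shares add up to a whole, so a large Cd63 share lowers the others. The lower Cd81 share in EoP than in GMP came with a log2 difference in CPM of 0.11, which did not pass the test.

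**Figure D2:**
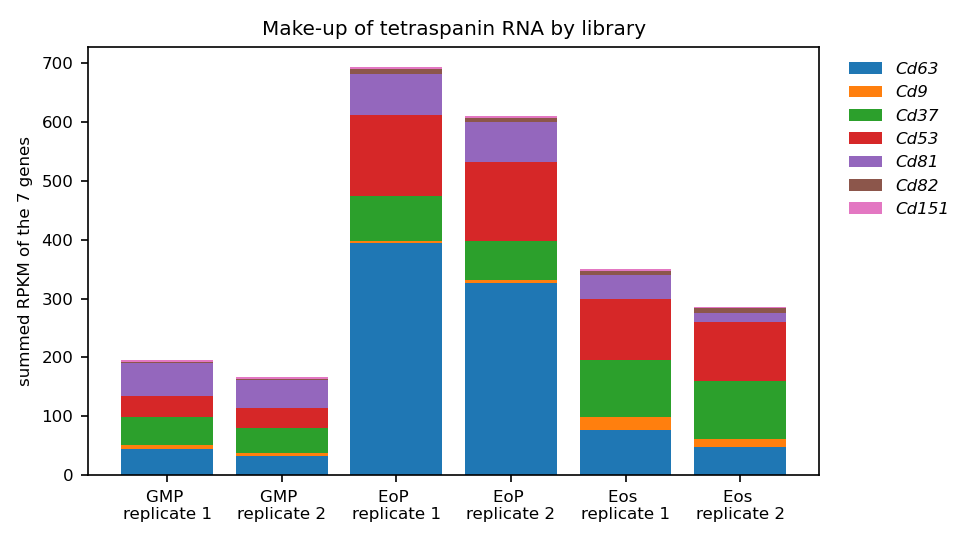
Summed RPKM of the 7 tetraspanins in each RNA library (vertical axis, RPKM), with one colour per gene. Cd63 fills 56.8% and 53.4% of the EoP bars, while Cd53 and Cd37 fill most of the Eos bars.

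The comparison of EoP with GMP asks what changes on entry to the eosinophil lineage. Cd63, Cd53 and Cd82 rose and Cd9 fell, while Cd37, Cd81 and Cd151 did not pass the test. Over all genes tested, 26.6% passed in this comparison, 9.49% as higher and 17.1% as lower, so 3 of 7 higher stands above its background and 1 of 7 lower stands near it. The median log2 fold change of the members was 0.40, against -0.07 over all genes tested.

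Cd63 had 886 and 672 CPM in EoP, against 116 and 86.0 CPM in GMP. Every EoP library was several times above every GMP library. The log2 fold change was 2.95 (SE 0.29), or 7.71-fold, with an adjusted p of 0.000187 in edgeR's quasi-likelihood test with Benjamini-Hochberg adjustment, used for every adjusted p here. As these are bulk libraries, more cells with the transcript and more RNA per cell cannot be told apart. Markers of basophils and mast cells, which also carry CD63, summed to 974.5 and 4008 CPM in EoP and to 1150 and 1131 CPM in GMP, with all 7 detected in each library. Their part in the rise of Cd63 was not tested. The summed eosinophil lineage markers stood at 204100 and 161000 CPM in EoP and 1146 and 298.5 CPM in GMP. Most of the EoP sum was Prg2, at 176395 and 137064 CPM, whereas Ccr3 had 21.3 and 34.5 CPM in EoP. The part of the lineage markers in the rise of Cd63 was not tested.

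Cd53, a partner of integrins and of protein kinase C in leukocytes, had 963 and 851 CPM in EoP, against 292 and 290 CPM in GMP. The groups were well apart, and the log2 fold change was 1.64 (SE 0.25, adjusted p = 0.0021), or 3.12-fold. Cd82 had 36.3 and 29.5 CPM in EoP, against 6.66 and 9.39 CPM in GMP. It was the weakest of the risers in level, with 55 and 63 counts in the GMP libraries, and changed by 2.04 (SE 0.29, adjusted p = 0.00159) on the log2 scale, or 4.11-fold.

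Cd9 had 12.7 and 14.3 CPM in EoP, against 25.5 and 21.3 CPM in GMP. The EoP libraries were both below the GMP libraries, and Cd9 fell by 0.79 on the log2 scale (SE 0.24, adjusted p = 0.0369), or 1.73-fold lower. Leaving out a single library of either progenitor ended this call (adjusted p = 0.153 to 0.25), and it was also lost with the replicate number as a block (adjusted p = 0.0589), by limma-voom (0.0693), with no filter (0.0546) and in fits of log2 RPKM (0.227 to 0.235). Its adjusted p ran from 0.0136 to 1.0 over 20 alternative settings. The highest value came from the test against a minimum change of 2-fold, a stricter question. Megakaryocyte and platelet markers, which accompany Cd9 in other blood cells, summed to 84.2 and 115 CPM in EoP and to 36.8 and 45.7 CPM in GMP, and their part in the result was not tested. Of these 7 markers, Ppbp and Gp1bb were at 0 in 1 GMP library.

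Cd37 had 231.5 and 190 CPM in EoP and 165 and 155 CPM in GMP, a log2 difference of 0.40 (SE 0.22, adjusted p = 0.227). It passed in the 3 fits of log2 RPKM, at 0.69 with adjusted p of 0.0396 to 0.0436. The adjusted p ran from 0.0396 to 1.0 over the alternatives, with the highest from the test against 2-fold. Cd81 had 266 and 235 CPM in EoP and 247 and 217 CPM in GMP, with overlapping libraries and a log2 difference of 0.11 (SE 0.33, adjusted p = 0.846). Cd151 had 13.9 and 12.1 CPM in EoP and 19.1 and 13.7 CPM in GMP, a log2 difference of -0.34 (SE 0.30, adjusted p = 0.45). These tests leave room for changes larger than their standard errors.

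The comparison of Eos with EoP asks what changes as the progenitors mature. Cd63 fell, Cd9 and Cd37 rose, and Cd53, Cd81, Cd82 and Cd151 did not pass. Over all genes tested, 36.8% passed, 19.1% as higher and 17.7% as lower, and 3 members of 7 is a share near that background. The median log2 fold change was 0.48 for the members and 0.02 over all genes tested. The EoP libraries enter both this comparison and the one before, so a high EoP value acts on both.

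Cd63 had 214 and 159 CPM in Eos, against 886 and 672 CPM in EoP. The groups did not overlap. Cd63 fell by 2.06 on the log2 scale (SE 0.28, adjusted p = 0.000543), or 4.17-fold lower. Basophil and mast cell markers also ran lower in Eos, at a summed 122 and 49.8 CPM, against 974.5 and 4008 CPM in EoP. The summed eosinophil lineage markers stood at 8062 and 8101 CPM in Eos, against 204100 and 161000 CPM in EoP. Of these 5 lineage markers, 2 passed as lower in Eos and 2 as higher. The part of either marker set in the result was not tested.

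Cd9 had 77.4 and 62.6 CPM in Eos, against 12.7 and 14.3 CPM in EoP. Each Eos library was several times above each EoP library, and Cd9 rose by 2.37 on the log2 scale (SE 0.25, adjusted p = 0.000143), or 5.17-fold. Platelet and megakaryocyte markers summed to 30.9 and 24.9 CPM in Eos, against 84.2 and 115 CPM in EoP, with Itga2b alone at 16.4 and 18.2 CPM in Eos and 71.8 and 71.1 CPM in EoP, and their part in the Cd9 result was not tested. The part of the neutrophil markers in this and the other rises in Eos was not tested.

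Cd37, which interacts with the fungal receptor Dectin-1 in myeloid cells, had 369 and 453 CPM in Eos, against 231.5 and 190 CPM in EoP. All Eos values were above all EoP values, and the log2 fold change was 0.96 (SE 0.23, adjusted p = 0.00861), or 1.95-fold. Without EoP replicate 2 the value was 0.85 and the call was lost, and without EoP replicate 1 the value was 1.1. Each of these fits leaves 1 EoP library, so they cannot show that the call rests on a particular library. The call was also lost in the fits of log2 RPKM. The adjusted p ran from 3.06e-05 to 0.652 over the alternatives, with the highest from the test against 2-fold. B cell markers, a usual companion of Cd37, summed to 118 and 47.9 CPM in Eos and to 18.8 and 26.8 CPM in EoP. Of these 6 markers, 4 passed as higher in Eos, and Ms4a1 and Pax5 were at 0 in EoP replicate 1. Their part in the rise of Cd37 was not tested.

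Cd81 had 190 and 83.0 CPM in Eos, against 266 and 235 CPM in EoP. Both Eos libraries were lower, but by unequal amounts, and the log2 difference was -0.87 (SE 0.34, adjusted p = 0.066). Without Eos replicate 1 the difference was -1.61, and without Eos replicate 2 it was -0.40. Each of these fits leaves 1 Eos library, so the spread between the Eos libraries does not enter them. With the replicate number as a block the difference passed, at -0.96 with an adjusted p of 0.0245. Over the alternatives that left out no library, the adjusted p ran from 0.00364 to 0.742. The highest value came from the test against 2-fold. The Eos library with more Cd81 also had more of the summed GMP markers Mpo, Elane, Prtn3 and Ctsg, with 14620 CPM in Eos replicate 1 and 4921 CPM in Eos replicate 2, against 2329 and 2885 CPM in EoP, and the part of these markers was not tested.

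Cd53 had 882 and 1060 CPM in Eos and 963 and 851 CPM in EoP, and its groups overlapped (log2 difference 0.10, SE 0.24, adjusted p = 0.773). Cd82 had 39.5 and 52.0 CPM in Eos and 36.3 and 29.5 CPM in EoP (log2 difference 0.48, SE 0.27, adjusted p = 0.185). Cd151 had 20.9 and 18.5 CPM in Eos and 13.9 and 12.1 CPM in EoP (log2 difference 0.60, SE 0.30, adjusted p = 0.143). Cd53 and Cd82, which rose in EoP over GMP, did not pass in this later step. Their tests leave room for differences larger than the standard errors.

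Across both steps, Cd53, Cd82, Cd37, Cd9 and Cd63 were higher in Eos than in GMP while Cd81 and Cd151 did not pass. The background in this comparison was 54.5% of all genes tested, 22.7% as higher and 31.8% as lower. In edgeR's test 5 of 7 members passed as higher and 0 as lower, with 1 lower, Cd81, at an unadjusted p under 0.05, 1 lower by limma-voom and 0 lower by DESeq2. The members' median log2 fold change was 1.36, against -0.39 over all genes tested. Cd82 changed most, by 2.52 (SE 0.29, adjusted p = 0.00014), or 5.72-fold. Cd53 followed at 1.74 (SE 0.25, adjusted p = 0.000443), Cd9 at 1.58 (SE 0.24, adjusted p = 0.000688) and Cd37 at 1.36 (SE 0.23, adjusted p = 0.00116), which are 3.34-fold, 2.99-fold and 2.57-fold.

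Cd63 had a much smaller net difference, with 214 and 159 CPM in Eos and 116 and 86.0 CPM in GMP (log2 fold change 0.89, SE 0.27, adjusted p = 0.0192), or 1.85-fold. Its call was lost without GMP replicate 2, at 0.85 with an adjusted p of 0.1. It was also lost when libraries were scaled by total counts alone, at 0.32 with an adjusted p of 0.322, under upper quartile factors, at 0.66 with 0.0549, and in the fits of log2 RPKM. Over the alternatives its adjusted p ran from 0.00105 to 0.628, with the highest from the test against 2-fold. Cd81 was at 190 and 83.0 CPM in Eos and 247 and 217 CPM in GMP (log2 difference -0.76, SE 0.34, adjusted p = 0.0773). That value was -1.47 without Eos replicate 1 and -0.26 without Eos replicate 2, in fits that each leave 1 Eos library. With the replicate number as a block it was -0.85 with an adjusted p of 0.0324. Over the alternatives that left out no library, the adjusted p ran from 0.0177 to 0.745. The highest value came from the test against 2-fold. Cd151 differed by 0.26 (SE 0.30, adjusted p = 0.479).

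**Figure D3:**
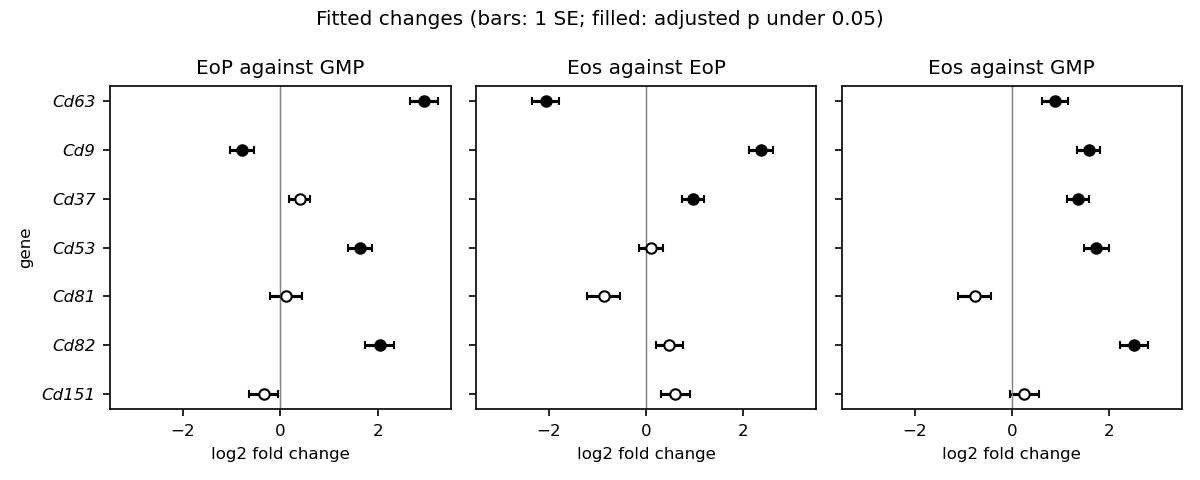
Log2 fold change of each tetraspanin (horizontal axis) in the 3 comparisons, with bars of 1 SE and filled points for an adjusted p under 0.05. Cd63 lies at 2.95 for EoP against GMP and at -2.06 for Eos against EoP, while Cd9 lies at -0.79 and 2.37.

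The profiles over the 6 libraries were compared after each gene's log2 CPM was centred on its mean, with the root mean square difference as the measure of likeness. Among the members, Cd53 and Cd82 were closest, at 0.342, and Cd63 and Cd9 farthest apart, at 1.945. Among 6475 other genes with a mean of at least 20 CPM, those nearest to Cd63 were Atp1b1 at 0.251, Camkmt at 0.276 and Scp2 at 0.297. Atp1b1, for a subunit of the sodium pump, had 19.4 and 19.5 CPM in GMP, 131 and 137 CPM in EoP, and 50.5 and 35.7 CPM in Eos. Nearest to Cd9 were Rassf2 at 0.21, Shisa5 at 0.219 and Slc43a2 at 0.239. Cd37 was matched by Rnf115 at 0.039, Dnajc14 at 0.047 and Dscr3 at 0.058. For Cd53 these were Slc31a2 at 0.117, Mien1 at 0.12 and Dtnbp1 at 0.125, and for Cd82 Rnh1 at 0.154, Cyba at 0.156 and Aldh2 at 0.166. Cd81 was closest to Dsn1 at 0.074, Nde1 at 0.113 and Slc25a17 at 0.124, and Cd151 to Kxd1 at 0.075, Lamtor4 at 0.092 and Grn at 0.098. The 6 points of each profile share their libraries and depth, so likeness is a description of these libraries.

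The transcripts behind the members differ in how well they are resolved. Cd37, Cd53, Cd81 and Cd9 each had 1 RefSeq transcript in the files. Cd63, on chromosome 10, had a transcript at chr10:128909866-128912818 that held 70.8% and 88.6% of its counts in GMP, 91.9% and 91.3% in EoP, and 94.8% and 91.0% in Eos. The rest went to a transcript that starts upstream, at chr10:128908919-128912818. Cd82 had 7 transcripts, and nearly all its counts went to those that start at position 93462502 of chromosome 2, except in Eos replicate 2, where 47.6% went to one that starts at position 93461851. Cd151 had 3 transcripts whose estimated shares ran from 0% to 100% between libraries, so only its gene total is used here. Cd81 overlaps the gene R74862 on the other strand by 619 bases, and Cd82 overlaps Gm10804 by 10132 bases. The sources used here do not say whether reads were counted by strand, and R74862 had 5 to 16 counts and Gm10804 0 to 49, beside 710 to 2744 counts of Cd81 and 55 to 445 of Cd82.

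The stretches just before the gene starts are shown next. The 250 bases before the start are printed for Cd9, Cd37, Cd53 and Cd81, which have 1 transcript each and unlike RNA profiles, from RefSeq on GRCm38.p6 and read along the gene. Capitals mark matches on either strand to the motif GATAA known from erythroid and eosinophil factors, the motif GAGGAA of many ETS family sites, the motif GCAAT of many C/EBP sites, the motif CCAAT bound by NF-Y, and the motif GGGCGG bound by Sp1. The E-box motif CANNTG was searched too but is left in lower case. The motifs GCAAT and then CCAAT differ in their first letter only.
Cd9 (chr6:125494761-125495010, minus strand): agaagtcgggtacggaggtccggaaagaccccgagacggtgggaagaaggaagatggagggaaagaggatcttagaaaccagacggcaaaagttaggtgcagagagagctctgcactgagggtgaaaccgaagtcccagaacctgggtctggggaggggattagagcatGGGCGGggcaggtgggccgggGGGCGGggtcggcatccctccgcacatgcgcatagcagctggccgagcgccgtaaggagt
Cd37 (chr7:45238840-45239089, minus strand): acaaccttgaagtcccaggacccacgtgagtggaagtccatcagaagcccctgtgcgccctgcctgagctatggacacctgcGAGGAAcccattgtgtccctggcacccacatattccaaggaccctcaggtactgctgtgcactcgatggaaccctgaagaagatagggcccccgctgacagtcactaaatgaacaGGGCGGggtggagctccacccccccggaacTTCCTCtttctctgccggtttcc
Cd53 (chr3:106790150-106790399, minus strand): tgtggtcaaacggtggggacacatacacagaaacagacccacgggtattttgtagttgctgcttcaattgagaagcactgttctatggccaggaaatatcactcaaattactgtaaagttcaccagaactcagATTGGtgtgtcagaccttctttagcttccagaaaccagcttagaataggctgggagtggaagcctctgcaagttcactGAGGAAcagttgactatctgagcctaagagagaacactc
Cd81 (chr7:143052500-143052749, plus strand): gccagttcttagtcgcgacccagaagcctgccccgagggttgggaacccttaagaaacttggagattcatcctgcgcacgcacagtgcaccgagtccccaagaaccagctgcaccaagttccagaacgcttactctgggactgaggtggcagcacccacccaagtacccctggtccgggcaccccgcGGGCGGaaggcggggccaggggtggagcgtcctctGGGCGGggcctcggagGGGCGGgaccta

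The Cd9 and Cd81 windows, with a GC content of 61.6% and 65.6%, held 2 and 3 matches to GGGCGG and none to the other capitalised motifs. The Cd53 window, at 45.2% GC, held 1 match to GAGGAA and 1 to CCAAT and no GGGCGG. The Cd37 window, at 58.8% GC, held 2 matches to GAGGAA and 1 to GGGCGG. All 4 held CANNTG, with 3 matches in Cd9, 2 each in Cd37 and Cd53 and 1 in Cd81. Among 32536 RefSeq windows of the same length, GGGCGG was found in 33.0%, GAGGAA in 23.4%, CCAAT in 33.8%, GATAA in 22.5%, GCAAT in 22.8% and CANNTG in 66.2%, and the median GC content was 52.4%. These matches are letters in a window and say nothing of whether a factor binds there. Listed H3K4me3 peaks of the same gene overlapped the Cd9 window in GMP alone, the Cd81 window in GMP and Eos, and the Cd37 window in Eos alone. The Cd53 window was overlapped in no list, and none of the 4 windows was overlapped in EoP.

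H3K4me3 was listed at the start of every member in every cell type. A promoter peak was annotated to 7 of 7 members in GMP, EoP and Eos alike, on a background of 56.6% of all genes in GMP, 48.3% in EoP and 50.6% in Eos. All members carried the mark whether their RNA was at its highest or lowest, and the same 7 of 7 held within 1000 and within 3000 bases of a start. The 7 of 7 also held among the 19816 top-ranked peaks of the GMP and Eos lists. That cut is the length of the EoP list, which it leaves whole. With 1 library per cell type there is no replicate check, and the fold enrichment values below are the authors' own, set only against other genes of the same list.

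Cd63, whose RNA varied most, had its main H3K4me3 peak over the start of its major transcript in each list. In GMP the peaks lay at chr10:128909635-128910500 and chr10:128910578-128910864, together 1153 bases, with a fold enrichment of up to 8.79. In EoP they lay at chr10:128909854-128910328 and chr10:128910622-128910766, together 620 bases, with a fold enrichment of up to 5.42. In Eos a single peak of 1191 bases lay at chr10:128909610-128910800, with a fold enrichment of 8.03. These folds were higher than those of 39.9% of genes with a promoter peak in the GMP list, 11.7% in the EoP list and 36.8% in the Eos list, so the cell type with the most Cd63 RNA had a Cd63 peak low in its list. Ranks in lists of different lengths show no change between cell types. The EoP list alone held a further peak in a Cd63 exon, at chr10:128911071-128911562, with a fold enrichment of 4.17.

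Cd151, with the lowest RNA in EoP and Eos, had among the most enriched starts of the 7. Its peak was at 16.1-fold in GMP, 12.4-fold in EoP and 15.2-fold in Eos, above 95.3%, 94.2% and 96.3% of the genes of those lists. Cd53, the most abundant member in Eos, had 5.87-fold in GMP, 5.73-fold in EoP and 6.44-fold in Eos, above 13%, 14.9% and 20.9% of genes. Level of RNA and fold enrichment of the peak were not in the same order in this pair of genes.

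The other members lay between these. Cd82 reached 15.5-fold in GMP, above 93.6% of genes, 8.78-fold in EoP, above 59.5%, and 9.60-fold in Eos, above 55.2%. Cd81 reached 7.25-fold in GMP, 9.40-fold in EoP and 12.8-fold in Eos, above 24.1%, 68.5% and 86.4% of genes, and its lines name R74862 as well. Cd37 was above 53.2% of genes in GMP, 74.1% in EoP and 36.1% in Eos, and Cd9 above 35.7%, 45.1% and 47.4%. Where peaks counted as shared only if they overlapped by at least 50% of both, the EoP and GMP lists shared 7 of 7 member starts, the Eos and EoP lists 6 (all but Cd63) and the Eos and GMP lists 6 (all but Cd81). The share of all genes that meet this rule was not computed, so these counts only describe the 7 starts.

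Away from the starts, 2 further sites recurred in all 3 lists. One lay upstream of Cd82, at chr2:93470292-93470758 in GMP, chr2:93470294-93470694 in EoP and chr2:93470296-93470772 in Eos. The other was an intergenic site annotated to Cd9 67824 bases or more past its start, beyond the end of the gene, at chr6:125426727-125426931 in GMP, chr6:125426645-125426843 in EoP and chr6:125426671-125426817 in Eos.

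**Figure D4:**
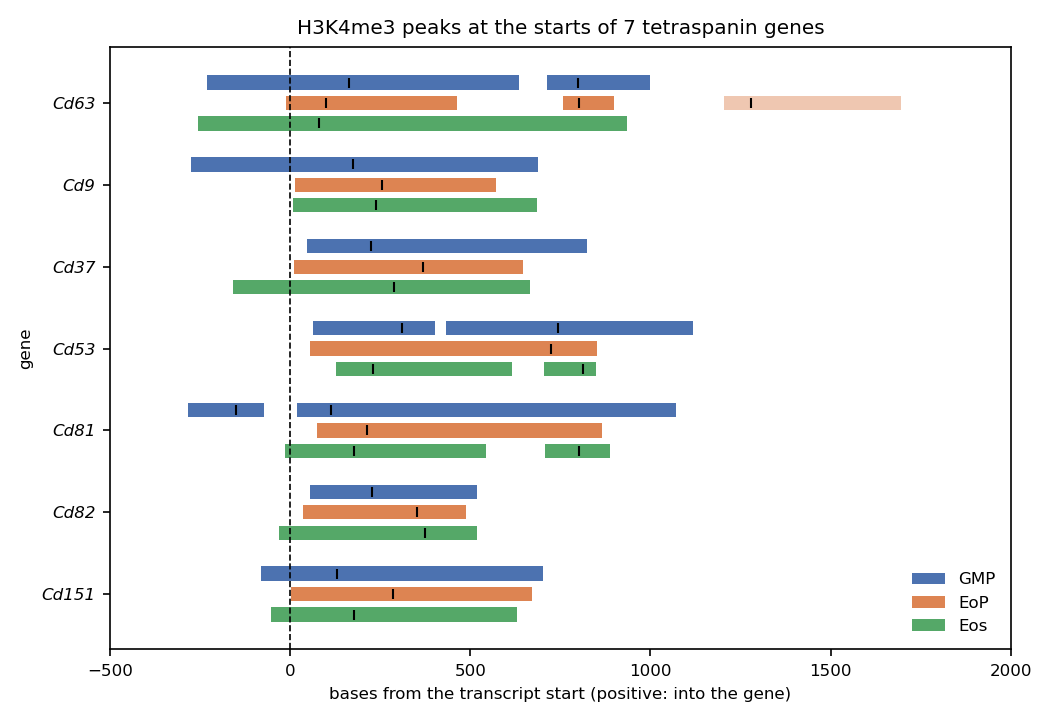
H3K4me3 peaks around the start of each tetraspanin, in bases from the start of its major transcript (horizontal axis, positive into the gene), with one bar per listed peak and a tick at its main summit. All 7 genes have a promoter peak in all 3 lists; the paler bar is the Cd63 exon peak listed in EoP alone.

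Of 24 other tetraspanin genes, 14 passed the filter on low counts. In EoP against GMP, 3 rose and 3 fell, with a median log2 fold change of -0.23 over the 14. In Eos against EoP, 5 rose and 2 fell (median 0.64), and in Eos against GMP 6 rose and 3 fell (median 0.22). Over all genes tested, 9.49% rose and 17.1% fell in EoP against GMP (median -0.07), 19.1% and 17.7% in Eos against EoP (median 0.02), and 22.7% and 31.8% in Eos against GMP (median -0.39). Tspan13 had 19.0 and 14.9 CPM in GMP, 72.6 and 72.2 CPM in EoP, and 203 and 373 CPM in Eos. It rose at both steps, by 2.09 (SE 0.31, adjusted p = 0.00186) in EoP over GMP and by 1.99 (SE 0.30, adjusted p = 0.000936) in Eos over EoP. Tspan32, a tetraspanin of blood cells, had 85.4 and 82.4 CPM in EoP, against 42.5 and 34.4 CPM in GMP (log2 fold change 1.12, SE 0.23, adjusted p = 0.00914). Rom1, best known from photoreceptors, rose from a low level, with 7.67 and 9.43 CPM in EoP, against 1.33 and 3.13 CPM in GMP (log2 fold change 1.95, SE 0.57, adjusted p = 0.0306). Tspan13 kept both calls without any 1 library, whereas the call of Tspan32 was lost without either GMP library or EoP replicate 1 (adjusted p up to 0.0727) and that of Rom1 without any GMP or EoP library (up to 0.212). When a single progenitor library was dropped, 1 to 2 genes of this list rose and 0 to 1 fell in EoP against GMP, while 7 fell without either Eos library.

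A group of 3 tetraspanins ran the other way. Tspan31 had 47.7 and 57.2 CPM in GMP, 23.2 and 21.3 CPM in EoP, and 15.9 and 6.78 CPM in Eos, and fell by 1.24 in EoP against GMP (SE 0.35, adjusted p = 0.0263). That call was lost without any GMP or EoP library (adjusted p up to 0.211), and the scarce Tspan9 and Tspan33, which also passed as lower there, were lost likewise. Tspan3 had 11.3 and 4.68 CPM in Eos, against 20.2 and 18.2 CPM in EoP, and fell by 1.26 (SE 0.39, adjusted p = 0.0293). Tspan4 had 2.01 and 1.40 CPM in Eos, against 5.42 and 6.26 CPM in EoP, and fell by 1.76 (SE 0.45, adjusted p = 0.0128). The Tspan4 call was lost without EoP replicate 2 (adjusted p = 0.0616), and the Tspan3 call without either EoP library, GMP replicate 2 or Eos replicate 2 (up to 0.112). All 3 passed as lower in Eos than in GMP, where they fell by 2.20, 2.21 and 2.88 on the log2 scale, and these calls held without any 1 library.

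The TspanC8 subgroup escorts the membrane protease ADAM10 to the cell surface. Of its genes, Tspan5, Tspan14, Tspan17 and Tspan33 were tested, while Tspan10 and Tspan15 were below the filter on low counts. The 4 tested passed as higher in Eos against EoP, where 19.1% of all genes did; they were drawn out of the list of other tetraspanins after their values were seen, so this count is a description. Tspan5 had 100 and 127 CPM in Eos, against 29.5 and 39.8 CPM in EoP (log2 fold change 1.71, SE 0.25, adjusted p = 0.000818). Tspan17 had 19.4 and 30.6 CPM in Eos, against 1.89 and 2.49 CPM in EoP (log2 fold change 3.5, SE 0.43, adjusted p = 0.000322). Tspan14 had 79.9 and 105 CPM in Eos, against 52.6 and 40.3 CPM in EoP (log2 fold change 1.00, SE 0.25, adjusted p = 0.011), a call lost without EoP replicate 2 (adjusted p = 0.101). Tspan33 was scarce, at 1.00 and 2.11 CPM in Eos and 0.236 and 0.0857 CPM in EoP, and its call held only without Eos replicate 1 among the 6 libraries left out. Adam10 itself had 115 and 132 CPM in Eos and 83.3 and 98.8 CPM in EoP, a log2 difference of 0.44 (SE 0.21) that did not pass (adjusted p = 0.128).

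**Figure D5:**
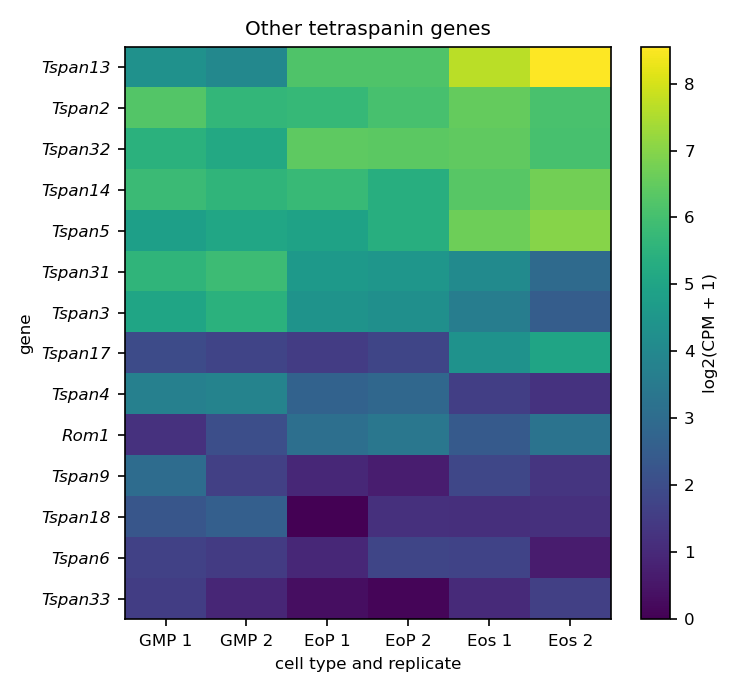
Level of the 14 other tetraspanin genes that were tested, as log2(CPM + 1) in each library (colour scale), ordered by mean level. Tspan13 brightens from GMP through EoP to Eos, while Tspan31, Tspan3 and Tspan4 darken.

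Among 16 genes for partners of tetraspanins, all tested, 3 rose and 3 fell in EoP against GMP (median -0.39), 11 rose and 0 fell in Eos against EoP (median 1.36), and 10 rose and 2 fell in Eos against GMP (median 1.17). As backgrounds, EoP against GMP had 9.49% of genes tested passing as higher and 17.1% as lower, Eos against EoP 19.1% and 17.7%, and Eos against GMP 22.7% and 31.8%, so the EoP against GMP count of 3 lower is near its background. At an unadjusted p under 0.05, 1 of them, Igsf8, was lower in Eos against EoP, where DESeq2 called 0 and limma-voom 0 as lower. Itgam and Itgb2, the chains of the Mac-1 integrin, rose at both steps. Itgam had 134 and 97.4 CPM in GMP, 551 and 713 CPM in EoP, and 3502 and 5660 CPM in Eos. Itgb2 had 57.6 and 34.9 CPM in GMP, 455 and 563 CPM in EoP, and 1642 and 2439 CPM in Eos. Both are also neutrophil integrins, and the neutrophil markers summed to 41520 and 48130 CPM in Eos, against 619 and 266 CPM in EoP, with their part in the rise in Eos not tested. In EoP against GMP, Itgb2 rose by 3.46 (SE 0.35, adjusted p = 0.000234), Itgam by 2.45 (SE 0.35, adjusted p = 0.00161) and Adam17 by 0.63 (SE 0.21, adjusted p = 0.0475). The Itgb2 and Itgam calls held without any 1 library, and that of Adam17 was lost without any GMP or EoP library (adjusted p up to 0.173).

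Igsf8, whose protein binds CD9 and CD81 directly, had 4.48 and 6.43 CPM in EoP, against 15.6 and 15.6 CPM in GMP, and fell by 1.51 (SE 0.39, adjusted p = 0.0196). Ptgfrn, the other direct partner of CD9 and CD81, had no count in either EoP library, against 2.18 and 0.894 CPM in GMP, and passed as lower. Itga6, a laminin-binding integrin chain and partner of CD151, had 21.2 and 29.2 CPM in EoP, against 58.3 and 59.6 CPM in GMP, and fell by 1.22 (SE 0.27, adjusted p = 0.0107). These 3 calls were lost without either GMP library or EoP replicate 1, and those of Igsf8 and Ptgfrn also without EoP replicate 2, at adjusted p up to 0.132 for Igsf8, 0.187 for Ptgfrn and 0.106 for Itga6. In Eos against EoP, Itgb7, an integrin chain used in homing to the gut, had 263 and 383 CPM in Eos and 4.25 and 12 CPM in EoP (log2 fold change 5.29, SE 0.45, adjusted p = 4.77e-05). Cd44, a hyaluronan receptor, had 1214 and 1966 CPM in Eos and 280.4 and 291 CPM in EoP (log2 fold change 2.48, SE 0.30, adjusted p = 0.000284). Without either EoP library 7 of the 16 partners rose in Eos against EoP.

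Cd63 was also set beside 17 genes of late endosomes and vesicle release, all tested. In EoP against GMP, 2 rose and 1 fell (median 0.31), and 14 did not pass. With 9.49% of all genes higher in this comparison, 2 of 17 higher is near the background, and 1 of 17 lower is below the 17.1% over all genes. Dropping a single progenitor library left 0 risen, and without either Eos library 6 rose. Lamp2, an abundant lysosomal membrane protein, had 649 and 620 CPM in EoP, against 380 and 321 CPM in GMP (log2 fold change 0.86, SE 0.23, adjusted p = 0.0211). Tsg101, of the sorting machinery for multivesicular bodies, rose by 0.91 (SE 0.28, adjusted p = 0.0392). The Lamp2 and Tsg101 calls were lost without any GMP or EoP library, at adjusted p up to 0.12 and 0.222. Lamp1 had 797 and 693 CPM in EoP and 543 and 487 CPM in GMP and did not pass (log2 difference 0.53, SE 0.24, adjusted p = 0.127). Cd68, a lysosomal protein of macrophages, had 3.77 and 2.91 CPM in EoP, against 23.7 and 21.6 CPM in GMP, and fell by 2.76 (SE 0.34, adjusted p = 0.000733). Monocyte, macrophage and dendritic cell markers were lower too, at 64.5 and 104 CPM in EoP and 1218 and 988 CPM in GMP, and their part in the result was not tested.

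In Eos against EoP, 5 of these 17 rose and 2 fell (median 0.33), and in Eos against GMP 9 rose and 2 fell (median 0.64), on backgrounds of 19.1% higher and 17.7% lower in Eos against EoP and 22.7% and 31.8% in Eos against GMP. Without either EoP library 2 rose in Eos against EoP, and 3 without Eos replicate 2; without GMP replicate 1, 4 rose in Eos against GMP. Cd68 rose by 2.28 (SE 0.34, adjusted p = 0.000936) in Eos over EoP. The monocyte, macrophage and dendritic cell markers summed to 567 and 512 CPM in Eos, against 64.5 and 104 CPM in EoP, with 5 of 7 passing as higher, and their part in the result was not tested. Stx7, a fusion protein of late endosomes, had 108 and 130 CPM in Eos, against 48.0 and 50.7 CPM in EoP (log2 fold change 1.27, SE 0.26, adjusted p = 0.00424). Rab27a, which docks granules for release, had 329 and 532 CPM in Eos, against 217 and 194 CPM in EoP (log2 fold change 1.07, SE 0.26, adjusted p = 0.0104). Hgs, another sorting protein of multivesicular bodies, rose by 0.84 (SE 0.27, adjusted p = 0.0352), and Ap3b1, of the AP-3 adaptor, by 0.69 (SE 0.23, adjusted p = 0.0418). The Rab27a, Hgs and Ap3b1 calls were lost without either EoP library, those of Hgs and Ap3b1 also without Eos replicate 2 and that of Ap3b1 without either GMP library, while those of Cd68, Stx7 and Ap3s1 held without any 1 library. Ap3s1, another subunit of this adaptor, which carries CD63 to lysosomes, had 25.8 and 16.8 CPM in Eos, against 48.0 and 45.9 CPM in EoP, and fell by 1.14 (SE 0.26, adjusted p = 0.00713). The scarce Rab27b also passed as lower, at 0.603 and 0 CPM in Eos, against 1.89 and 6.17 CPM in EoP, and was lost without EoP replicate 2 or Eos replicate 2. The subunit Ap3d1 had 109 and 164 CPM in Eos and 52.3 and 67.6 CPM in GMP and passed as higher there, by 1.19 (SE 0.26, adjusted p = 0.00422), a call lost without GMP replicate 1 (adjusted p = 0.0546).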

How the data were processed

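RNA was measured in 6 libraries and H3K4me3 in 3. The deposited RNA files list RefSeq transcripts, each with the authors' estimated count in whole numbers and their RPKM. Replicates were not pooled. Per the submitters' processing notes, mm10 was the build and STAR 2.4.0c and Bowtie 1.0.0 were used, in roles the notes leave out. The sources used here do not name the counter, the annotation or the strand setting. Peak lists came with a pileup signal at the summit, −log10 of the p-value and q-value, and a fold enrichment, per the file headers. The sources used here name neither a peak caller nor a control, and the read depth of these libraries is unknown.

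Libraries were grouped by their titles. Deposited counts were summed per gene symbol, and 14324 genes were tested in R 4.3.3 with edgeR 4.0.16 (default filter, TMM factors, 1 quasi-likelihood fit of the 6 libraries with 3 residual degrees of freedom, Benjamini-Hochberg adjustment over all genes tested, called under 0.05). RPKM was summed the same way for levels. For every list other than the members, the genes named are up to 4 called in each direction by size of change, with a group mean of 5 CPM or more, and genes placed beside them for contrast or to complete a count (Adam10, Lamp1, Tspan9, Tspan33, Ptgfrn, Ap3b1, Rab27b) were chosen after their values were seen. A gene of the partner list that this rule names is counted but not reported here. Vamp7 was not matched in the files and is not in the counts of its list. Members, lists and tests were chosen with earlier results of these data known.

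Alternatives were DESeq2 1.42.0, limma 3.58.1 with voom, other scalings and filters, the replicate block, limma on log2 of RPKM plus 0.5 or 0.1, a test against 2-fold, and the omission of each library. The scripts were tested on simulated data. Replicate numbers are shared by the cell types, but nothing says that a number marks a shared animal or day. No peak was tested, with 1 library per cell type.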

Additional observations from a re-analysis of the deposited data

How the results depend on the processing

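Each comparison was repeated under 20 alternative settings. The rises of Cd63, Cd53 and Cd82 in EoP against GMP, the fall of Cd63 and the rise of Cd9 in Eos against EoP, and the rises of Cd53, Cd82 and Cd9 in Eos against GMP kept their direction and their call in 20 of 20, and the rise of Cd37 in Eos against GMP in 19. Members called higher in EoP against GMP were 4 in the 3 fits of log2 RPKM, Cd37 being the addition, and 3 in the other settings. The fall of Cd9 in EoP against GMP was kept in 9, and with it the count of members lower was 0 by limma-voom, with no filter, with the replicate block, in each of the 3 fits of log2 RPKM and with a minimum change of 2-fold, and 0 to 1 with 1 library left out. In Eos against EoP, 1 member was higher in the 3 RPKM fits and at 2-fold, and 1 to 2 with 1 library left out; 2 were lower by limma-voom, with no filter, with the replicate block and in the RPKM fits with a filter, and 1 to 2 with 1 library left out, Cd81 being the addition. In Eos against GMP, 3 were higher at 2-fold, and 1 was lower under upper quartile factors, library size alone, limma-voom, no filter and the replicate block, and 0 to 1 with 1 library left out.

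Only differences that had not passed changed sign. Under library size alone these were Cd37 at -0.08 and Cd81 at -0.36 in EoP against GMP, Cd53 at -0.02 in Eos against EoP and Cd151 at -0.31 in Eos against GMP. Upper quartile factors gave -0.07 for Cd81 in EoP against GMP. The 3 RPKM fits gave -0.41 for Cd53 and -0.01 for Cd82 in Eos against EoP, and leaving out 1 library gave -0.04 to 0.21 for Cd53 there. The RPKM fits use the authors' scaling of libraries in place of TMM. Relative to GMP replicate 1, counts per RPKM, read from the gene Lypla1, were 0.885 and 1.12 in EoP and 1.28 and 1.34 in Eos. TMM-scaled library sizes were 1.03 and 1.41 in EoP and 1.21 and 1.04 in Eos. The part of this difference in the sign changes was not tested. Levels from the most abundant transcript alone were 1.03 RPKM in GMP, 4.87 in EoP and 4.81 in Eos for Cd82, and 1.42 in GMP and 1.40 in EoP for Cd151.

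Scaling by library size alone moved the median of all genes by -0.46 in EoP against GMP, -0.07 in Eos against EoP and -0.58 in Eos against GMP; upper quartile factors moved it by -0.18, -0.02 and -0.23, and DESeq2 size factors by -0.01, 0.11 and 0.09. Of all genes called, 35.7% were higher in EoP against GMP, and 14.3% to 33.8% under other scalings, and 41.7% in Eos against GMP, and 23.0% to 45.2%. The number of genes called in EoP against GMP was 3812. It was 735 and 1001 without GMP replicate 1 and 2, 1343 and 1605 without EoP replicate 1 and 2, 5898 and 5828 without Eos replicate 1 and 2, and 2687 with the replicate block. In Eos against EoP it was 5273 (1649 at 2-fold to 6397 without Eos replicate 1) and in Eos against GMP 7810 (3697 at 2-fold to 8795 with library size alone). Over all settings, other tetraspanins called ran from 1 to 3 higher and 0 to 7 lower in EoP against GMP, 3 to 5 and 0 to 3 in Eos against EoP, and 3 to 6 and 3 to 5 in Eos against GMP. Partner genes ran from 2 to 3 and 0 to 6, 5 to 11 and 0 to 1, and 5 to 10 and 1 to 2. Late endosome genes ran from 0 to 7 higher in EoP against GMP, with 4 where only the compared groups were fitted, and 1 lower throughout, then 1 to 8 and 0 to 2, and 2 to 11 and 0 to 3, with 4 to 10 higher in Eos against GMP when 1 library was left out. Of the calls in these 3 lists, 4 of 15, 12 of 25 and 20 of 32 held without any 1 library in EoP against GMP, Eos against EoP and Eos against GMP. Adam10 in Eos against EoP turned to -0.06 and -0.07 in the RPKM fits. The replicate numbers were used as a block only as an alternative. Differences between replicates 1 and 2 of a cell type correlated across genes at -0.1 for EoP and GMP, -0.085 for Eos and EoP and 0.019 for Eos and GMP. Among genes with a mean of at least 20 CPM these were -0.262, -0.143 and 0.087. These values do not settle whether a shared number pairs libraries. Depth limits Cd82 in GMP, at 55 and 63 counts, and the peak lists have no replicate.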

Other observations

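Of the 24 other tetraspanin genes, 10 did not pass the filter on low counts and are given here as counts. Tspan10, a member of the TspanC8 subgroup, had 29 and 3 counts in GMP, 0 and 0 in EoP, and 0 and 2 in Eos, so a single GMP library held most of its reads. Upk1b, from the urothelial plaque, had 7 counts in GMP replicate 2 and 0 in each other library. Prph2, from photoreceptors, had 2 and 7 counts in GMP, 1 and 4 in EoP, and 0 and 0 in Eos. Tspan15, another gene of the TspanC8 subgroup, had 2 and 6 counts in GMP, 6 and 0 in EoP, and 3 and 5 in Eos. Tspan8 had 5 and 0 counts in GMP, 5 and 0 in EoP, and 3 and 10 in Eos. No comparison is drawn from counts at this level.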
